A study of Mus musculus with 6 samples.

Results

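Notch receptors, their ligands and their transcriptional targets were read in wire-injured mouse carotid arteries with and without IRF4. The set was 10 genes chosen by name: the receptors Notch1, Notch2, Notch3 and Notch4, the ligands Jag1, Jag2 and Dll4, and the targets Hes1, Hey1 and Heyl. All probe sets annotated to 1 of these symbols alone were taken, 21 of the 45101 probe sets on the array and of the 34945 with a single gene symbol that were tested. Wild-type mice (WT) were compared with mice carrying a global knockout of Irf4, an interferon regulatory factor (IRF4 KO). Both genotypes underwent wire injury of the carotid artery, an operation in which a wire strips the endothelium from the vessel, and arteries were taken at day 14. Each genotype had 3 Affymetrix arrays, and each array held the pooled RNA of 3 to 5 vessels, from which 400 ng was labelled. There was no uninjured artery, so the effect of injury itself was not measured. The labels give no age, sex or strain and not the deleted part of Irf4, and a global knockout removes the factor from vessel wall and blood cells alike. The labels call the arrays biological replicates, and p-values measure the spread between these pools.

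In Notch signalling a ligand on one cell binds a receptor on its neighbour, the receptor is cut by an ADAM protease and then by gamma-secretase, and the freed intracellular domain joins RBPJ in the nucleus to switch on HES and HEY repressor genes. In arteries, NOTCH3 is the receptor best known in smooth muscle, NOTCH1 and NOTCH4 act in endothelium, JAG1 is presented by both cell types, and DLL4 marks arterial and sprouting endothelium. The pathway shapes smooth muscle differentiation and the regrowth of endothelium.

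Values are log2 intensities as the authors normalized them with RMA, and a change is IRF4 KO minus WT on that log2 scale, so that 1 unit is a 2-fold difference. Array medians lay between 3.94 and 4.12, and the median probe set read 4.24. WT 3 and IRF4 KO 1 differed from the rest in labelling controls: their poly-A spike-in controls, bacterial RNAs added before labelling, averaged 4.93 and 5.14, against 7.35 to 9.26 elsewhere. For the members the difference was therefore also taken between these arrays and among the other 4, and for 5 other pathway genes it is given so as well. Hybridization controls were lowest in the same arrays too, averaging 9.41 in WT 3 and 9.22 in IRF4 KO 1, against 9.78 to 11.48 in the other 4. The targeted gene did not check the labels. Its probe set 1421174_at read 3.90, 3.64 and 3.38 in WT 1, 2 and 3 and 3.27, 3.75 and 3.70 in IRF4 KO 1, 2 and 3, below the median probe set in all 6 arrays, and 1421173_at differed by -0.088 (SE 0.21, 95% interval -0.57 to 0.39). Smooth muscle markers matched the labelled tissue: Myh11, the smooth muscle myosin, read 11.44 to 12.30 over the 6 arrays.

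No Notch receptor, ligand or target was called different between the genotypes, and the arrays of both genotypes overlapped for every one of them. With limma, 0 of the 21 probe sets passed an adjusted p of 0.05 (Benjamini-Hochberg over all 34945 probe sets), where the background was also 0%, and the smallest adjusted p of a member was 0.9995. At an unadjusted p under 0.05 there were 0 members as well, against 1.83% of all probe sets. In none of the 21 did the genotypes fail to overlap, where 6.24% of all probe sets had 3 arrays of one genotype entirely above those of the other. In so few probe sets, several of them of the same gene, a count of 0 is near that share. Of the 21 changes, 14 were above 0 and 7 below, against 51.2% above 0 over the table, and their median was 0.15 against 0.0058 for all probe sets. That direction was not found over brighter probe sets: over the brightest probe set of each gene 4 were above 0 and 6 below, with a median of -0.083, and over the 13 members brighter than the median probe set 7 were above and 6 below, with a median of 0.020. The sizes had limits: 14 of the 21 intervals of 95% lay within 1 log2 unit on either side of 0, so for the other 7 a 2-fold difference lay inside the interval. With 3 arrays per genotype the precision is low. The plot of all values shows how far the arrays of one genotype spread.

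**Figure D1:**
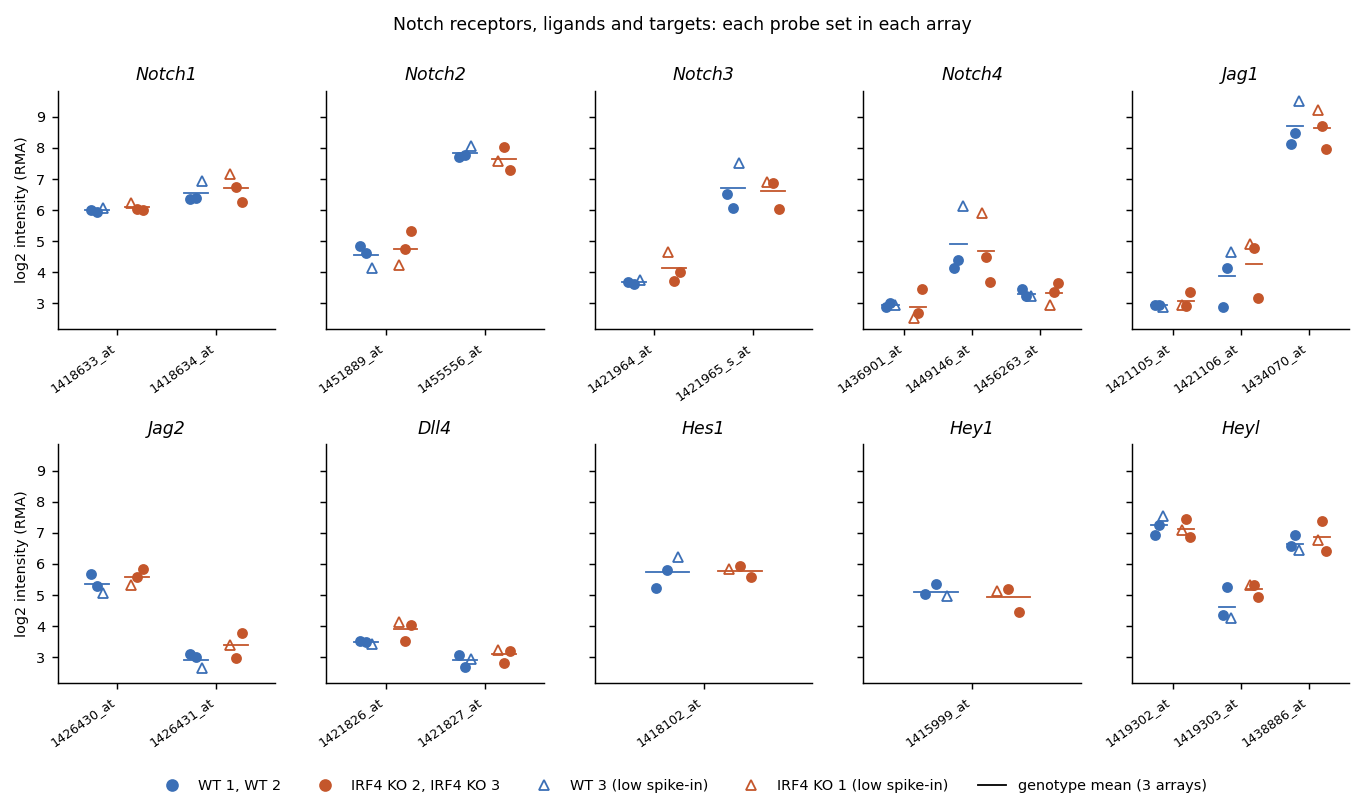
Log2 intensity (vertical axis) of each of the 21 probe sets of the 10 genes in each array; blue marks WT, orange IRF4 KO, open triangles WT 3 and IRF4 KO 1, and short lines the genotype means over 3 arrays. In every probe set the genotypes overlap, and in Notch4 1449146_at and Jag1 1434070_at the triangles of both genotypes sit above all filled points.

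The receptors had 9 probe sets, with 5 changes above 0 and 4 below and a median of 0.012. Notch3, the receptor of smooth muscle, read 6.52, 6.08 and 7.52 in WT 1, 2 and 3 and 6.90, 6.86 and 6.04 in IRF4 KO 1, 2 and 3 on its brightest probe set, 1421965_s_at. WT 3 was the highest array and IRF4 KO 3 the lowest, and the genotypes overlapped over most of their range. The change was -0.10 (SE 0.39, 95% interval -1.02 to 0.81), which leaves room for a fold between 0.495 and 1.75. On the other Notch3 probe set, 1421964_at, values were 3.70, 3.63 and 3.77 in WT 1, 2 and 3 and 4.64, 3.71 and 4.02 in IRF4 KO 1, 2 and 3, below the median probe set except in IRF4 KO 1. That change was 0.43 (SE 0.25, 95% interval -0.15 to 1.01), the largest among the receptors, and IRF4 KO 2 lay inside the WT range. The Notch3 probe sets thus differed in sign, and neither passed.

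Notch1, which acts in endothelium and in immune cells, gave the tightest interval of the set. Its probe set 1418633_at read 6.01, 5.93 and 6.06 in WT 1, 2 and 3 and 6.22, 6.05 and 6.0 in IRF4 KO 1, 2 and 3, a range of 0.29 over all 6 arrays. The change was 0.088 (SE 0.17, 95% interval -0.29 to 0.47), an interval of 0.816 to 1.38-fold. The brighter probe set 1418634_at read 6.35, 6.39 and 6.95 in WT 1, 2 and 3 and 7.16, 6.76 and 6.27 in IRF4 KO 1, 2 and 3, and its change was 0.17 (SE 0.28, 95% interval -0.47 to 0.81). WT 3 and IRF4 KO 1 were the highest arrays on both Notch1 probe sets.

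Notch2, a receptor found in smooth muscle and in macrophages and B cells, read 7.71, 7.76 and 8.05 in WT 1, 2 and 3 and 7.59, 8.03 and 7.28 in IRF4 KO 1, 2 and 3 on 1455556_at. The change was -0.21 (SE 0.23, 95% interval -0.75 to 0.33), and IRF4 KO 2 lay within the WT range while IRF4 KO 1 and 3 lay below it. On 1451889_at the change was 0.22 (SE 0.31, 95% interval -0.50 to 0.94), in the opposite direction, with IRF4 KO 3 above and IRF4 KO 1 and 2 inside the WT range.

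Notch4, the receptor most restricted to endothelium, had the widest spread. On 1449146_at it read 4.15, 4.41 and 6.15 in WT 1, 2 and 3 and 5.91, 4.48 and 3.67 in IRF4 KO 1, 2 and 3. The range over the 6 arrays was 2.47 log2 units, and the values did not split by genotype. WT 3 and IRF4 KO 1, the arrays with low spike-in, were high and the other 4 low. A link to the spike-in level was not tested, and the same arrays also differed in macrophage and cartilage genes, given below. The change was -0.21 (SE 0.66, 95% interval -1.74 to 1.31), wide enough to hold a 2-fold difference in either direction. The other Notch4 probe sets, 1436901_at and 1456263_at, read between 2.52 and 3.67 in all arrays, below the median probe set, and differed by -0.048 and 0.012. WT 3 and IRF4 KO 1 were not high on these, and on 1456263_at they were the lowest arrays.

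**Figure D2:**
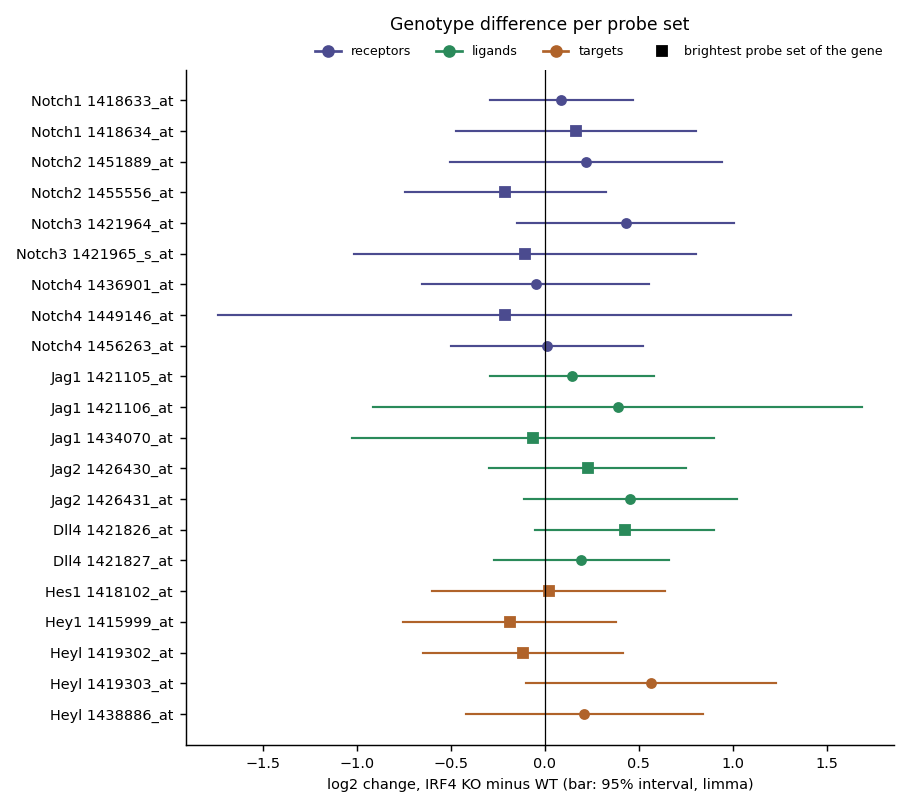
Log2 change, IRF4 KO minus WT (horizontal axis), for each probe set of the receptors, ligands and targets, with the 95% interval of the limma fit over 3 arrays per genotype as a bar; squares mark the brightest probe set of each gene. All 21 intervals cross 0, and the widest belong to Notch4 1449146_at and Jag1 1421106_at.

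The ligands had 7 probe sets, with 6 differences above 0 and 1 below, with a median of 0.23. Jag1, the ligand that smooth muscle and endothelium both present, read 8.14, 8.47 and 9.49 in WT 1, 2 and 3 and 9.22, 8.71 and 7.98 in IRF4 KO 1, 2 and 3 on its brightest probe set, 1434070_at. Here too WT 3 and IRF4 KO 1 were the highest arrays, and IRF4 KO 3 was the lowest. The change was -0.062 (SE 0.42, 95% interval -1.02 to 0.90). On 1421106_at the values were 2.90, 4.14 and 4.65 in WT 1, 2 and 3 and 4.90, 4.78 and 3.17 in IRF4 KO 1, 2 and 3, with WT 1 and IRF4 KO 3 more than 0.5 log2 units below the others, and the change was 0.39 (SE 0.56, 95% interval -0.91 to 1.69). The third Jag1 probe set, 1421105_at, stayed between 2.90 and 3.38 and differed by 0.15.

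Dll4, the ligand of arterial and sprouting endothelium, had the smallest unadjusted p of all members (limma, 0.0744, adjusted p = 0.9995). Its probe set 1421826_at read 3.54, 3.48 and 3.42 in WT 1, 2 and 3 and 4.14, 3.53 and 4.04 in IRF4 KO 1, 2 and 3. All 6 values lay below the median probe set, where RMA compresses differences. IRF4 KO 1 and 3 were above all WT arrays, and IRF4 KO 2 was inside the WT range. The change was 0.42 (SE 0.21, 95% interval -0.053 to 0.90), and on the other Dll4 probe set, 1421827_at, it was 0.19 (SE 0.20, 95% interval -0.27 to 0.66).

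Jag2, a ligand best known in lymphoid and epithelial development and also made by endothelium, read 5.68, 5.29 and 5.08 in WT 1, 2 and 3 and 5.31, 5.59 and 5.84 in IRF4 KO 1, 2 and 3 on 1426430_at. The genotypes overlapped, with IRF4 KO 1 and 2 inside the WT range, and the change was 0.23 (SE 0.23, 95% interval -0.29 to 0.75). On 1426431_at, which lay below the median probe set in all arrays, IRF4 KO 1 and 3 exceeded the WT arrays and the change was 0.45 (SE 0.25, 95% interval -0.11 to 1.02). For Dll4 and Jag2 all 4 differences had the same direction, and none passed the test.

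The targets read out signalling through RBPJ, and their 5 probe sets had 3 changes above 0 and 2 below. Hes1, a repressor switched on directly by Notch in many cell types, read 5.23, 5.81 and 6.24 in WT 1, 2 and 3 and 5.83, 5.92 and 5.58 in IRF4 KO 1, 2 and 3. The 3 IRF4 KO arrays fell inside the WT range, and the change was 0.020 (SE 0.27, 95% interval -0.60 to 0.64). Hey1, a repressor of the arterial endothelium and smooth muscle, read 5.03, 5.35 and 4.97 in WT 1, 2 and 3 and 5.12, 5.21 and 4.45 in IRF4 KO 1, 2 and 3. IRF4 KO 3 was the lowest array and the other IRF4 KO arrays lay within the WT range, with a change of -0.19 (SE 0.24, 95% interval -0.75 to 0.38).

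Heyl, a HEY family repressor known as a target of NOTCH3 in smooth muscle, had 3 probe sets. The brightest, 1419302_at, read 6.94, 7.27 and 7.54 in WT 1, 2 and 3 and 7.09, 7.44 and 6.87 in IRF4 KO 1, 2 and 3 and differed by -0.11 (SE 0.23, 95% interval -0.65 to 0.42). On 1419303_at the values were 4.36, 5.25 and 4.25 in WT 1, 2 and 3 and 5.31, 5.31 and 4.93 in IRF4 KO 1, 2 and 3, a change of 0.56 (SE 0.29, 95% interval -0.100 to 1.23). That was the only member change of at least 0.5 in size, against 4% of all probe sets, and WT 2 lay inside the IRF4 KO range. The third, 1438886_at, differed by 0.21 (SE 0.27, 95% interval -0.42 to 0.84). The Heyl probe sets therefore gave no common direction.

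WT 3 and IRF4 KO 1 were compared on their own because they differed from the rest in spike-in level, 1 array of each genotype, and this difference has no test. In 5 of the 21 member probe sets both of these arrays exceeded all other arrays (14.9% of all probe sets did so): both of Notch1, Notch3 1421965_s_at, Notch4 1449146_at and Jag1 1434070_at. In 2 of the 21, Notch2 1451889_at and Notch4 1456263_at, both were below the others (19.7% of all). Between IRF4 KO 1 and WT 3, Heyl 1419303_at differed by 1.06, Notch3 1421964_at by 0.87, Jag2 1426431_at by 0.74 and Dll4 1421826_at by 0.71. Among the other 4 arrays the same probe sets differed by 0.31, 0.21, 0.31 and 0.28, smaller in each case and in the same direction. They were picked as the largest differences of that single pair, so smaller values in the remaining arrays cannot show that the pair is special. Some members were smaller in the pair instead. For Jag1 1421106_at the pair gave 0.25 and the other arrays 0.46, and for Notch2 1451889_at 0.081 and 0.29. The brightest Notch3 probe set went from -0.62 between IRF4 KO 1 and WT 3 to 0.15 among the other 4, and Hes1 from -0.41 to 0.24. In 7 of the 21 the sign differed between both sets of arrays, or 33.3%, against 47.5% over all probe sets. With limma over the 4 arrays 0 members passed, against 0.0172% of all probe sets, and with spike-in level fitted as a block 0 members passed, against 0%.

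**Figure D3:**
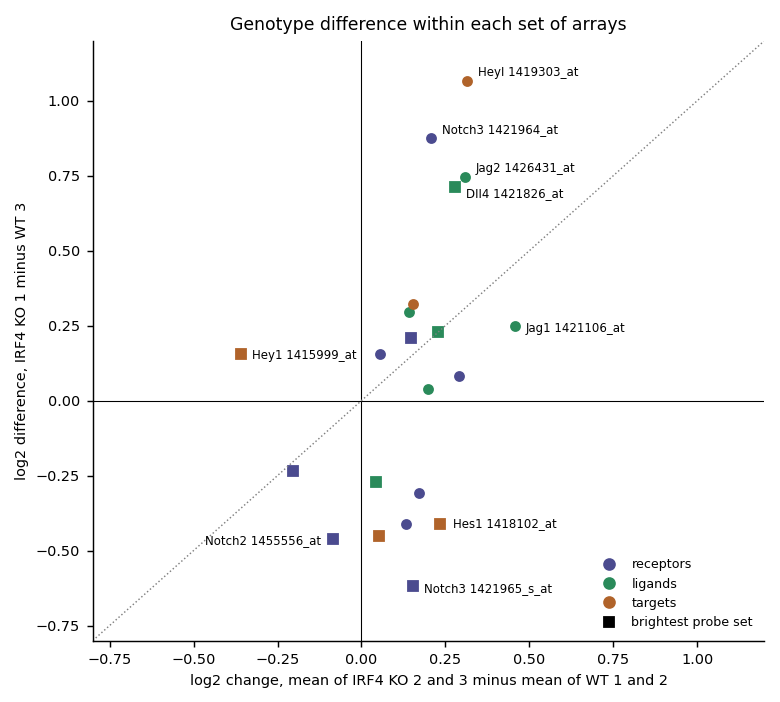
Log2 difference between IRF4 KO 1 and WT 3 (vertical axis) against the log2 change among the other 4 arrays (horizontal axis) for each member probe set; the dotted line marks equal differences. Heyl 1419303_at, Notch3 1421964_at, Jag2 1426431_at and Dll4 1421826_at lie well above the line, and the 7 probe sets in the upper left and lower right corners change sign between the sets.

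Some markers of cells that carry Notch receptors were also highest in WT 3 and IRF4 KO 1, but 0 of the 9 smooth muscle genes were. The 10 endothelial genes had a mean log2 level of 7.18 in WT 3 and 7.44 in IRF4 KO 1, against 6.41 to 6.83 in the other 4 arrays, and 4 of the 10 were highest in both. Cdh5, the cadherin of endothelial junctions, read 5.68, 6.32 and 7.37 in WT 1, 2 and 3 and 7.22, 6.80 and 6.49 in IRF4 KO 1, 2 and 3. Tie1, an endothelial receptor kinase, read 4.88, 5.08 and 6.44 in WT 1, 2 and 3 and 6.72, 5.00 and 4.92 in IRF4 KO 1, 2 and 3, a pattern like that of Notch4 1449146_at. Other endothelial genes did not share it: Vwf was highest in IRF4 KO 2 and Pecam1 in IRF4 KO 3. The 5 pericyte genes had a mean level of 9.30 in WT 3 and 9.37 in IRF4 KO 1, against 8.16 to 8.71 in the other 4 arrays, but 2 of the 5 were highest in both, Rgs5 and Pdgfrb, and Abcc9 was lowest in IRF4 KO 1. Rgs5, a regulator of G protein signalling in mural cells, differed most, at 6.94, 6.54 and 10.49 in WT 1, 2 and 3 and 11.00, 7.66 and 7.42 in IRF4 KO 1, 2 and 3. Without Rgs5, left out after its values were seen, the mean of the other 4 pericyte genes was 8.46, 8.68 and 9.00 in WT 1, 2 and 3 and 8.97, 8.97 and 8.50 in IRF4 KO 1, 2 and 3, so that IRF4 KO 1 and IRF4 KO 2 were alike. Macrophage genes (7.70 in WT 3 and 8.84 in IRF4 KO 1, against 4.52 to 5.46 in the other 4 arrays) and cartilage genes (7.53 in WT 3 and 7.90 in IRF4 KO 1, against 3.82 to 4.16 in the other 4 arrays) differed most, with 9 of 10 and 6 of 7 highest in both arrays, as were 4 of 5 fibroblast genes (9.07 in WT 3 and 9.59 in IRF4 KO 1, against 7.22 to 7.50 in the other 4 arrays).

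Between the genotypes these lists overlapped. The endothelial mean was 6.41 to 7.18 in WT and 6.74 to 7.44 in IRF4 KO, the pericyte mean 8.16 to 9.30 in WT and 8.28 to 9.37 in IRF4 KO, the macrophage mean 4.84 to 7.70 in WT and 4.52 to 8.84 in IRF4 KO and the cartilage mean 3.82 to 7.53 in WT and 3.94 to 7.90 in IRF4 KO. The 9 smooth muscle genes had a mean of 9.95 to 10.30 in WT and 10.09 to 10.63 in IRF4 KO, and WT 3 was the lowest array. That mean joins unlike genes: 3 of the 9 did not overlap between the genotypes, against 6.24% of all probe sets. The differences of the other 6 lay between -0.28 and 0.19. Acta2, smooth muscle actin, read 12.80, 12.84 and 12.62 in WT 1, 2 and 3 and 13.84, 13.92 and 13.90 in IRF4 KO 1, 2 and 3. Tagln, an actin-binding protein, read 12.16, 12.27 and 12.08 in WT 1, 2 and 3 and 13.28, 13.30 and 13.18 in IRF4 KO 1, 2 and 3. Smtn, a contractile smooth muscle protein, read 9.68, 9.81 and 9.74 in WT 1, 2 and 3 and 10.86, 10.80 and 10.83 in IRF4 KO 1, 2 and 3. The 3 differences were 1.14, 1.08 and 1.09, each higher in the 3 IRF4 KO arrays than in all WT arrays, and each had an adjusted p of 0.293 in limma and did not pass. For each endothelial, pericyte and smooth muscle gene the mean over the 6 arrays lay above the median probe set. Some single values were close to it, such as 4.47 for Emcn in WT 1, and no detection floor was measured. In these lists 0 genes passed the test. The part of cell composition in the Notch values was not tested. In RNA from whole vessels, fewer cells of a type and less RNA per cell cannot be told apart.

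**Figure D4:**
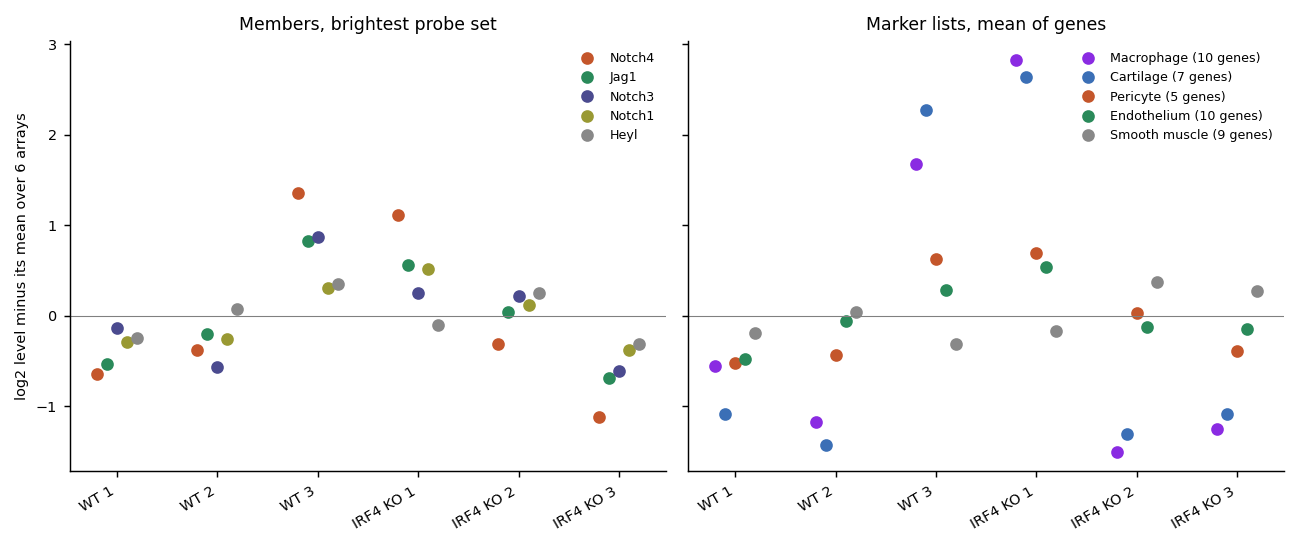
Left, log2 level of the brightest probe set of 5 members in each array minus its mean over the 6 arrays; right, the mean log2 level of 5 marker lists on the same scale. Notch4, Jag1, Notch1 and Notch3 are highest in WT 3 and IRF4 KO 1, Notch3 narrowly so (6.90 in IRF4 KO 1, 6.86 in IRF4 KO 2), and Heyl is not. The macrophage, cartilage, pericyte and endothelial lists are also highest in these arrays (the pericyte list only with Rgs5 included), while the smooth muscle list is not.

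The other genes of the pathway were read from a list of 47, of which 43 had a probe set with a single symbol, 84 probe sets in all. With limma 0 of the 84 passed in either direction, against 0% of all probe sets, and 4 had an unadjusted p under 0.05, against 1.83% of all probe sets. Without the 3 probe sets of Ccnd1 it was 1 of 81. The genotypes did not overlap in 6 of the 84, against 6.24% of all. There were 47 changes above 0 and 37 below, with a median of 0.063. Between IRF4 KO 1 and WT 3 and among the other 4 arrays the sign differed in 34 of the 84, or 40.5%. The widest gap was that of Dtx3, a Deltex family ubiquitin ligase named after its values were seen, at -1.29 and 0.046.

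Among the 6 probe sets of other ligands, 0 passed. Dll1, a ligand that triggers Notch in lymphocytes and arterial endothelium, read 6.58 ± 0.69 over the WT arrays and 6.75 ± 0.29 over the IRF4 KO arrays (SD, n = 3). Of the 18 probe sets of the proteases that cut the receptor, 0 passed. The sheddase Adam10 read 8.60 ± 0.15 over the WT arrays and 8.38 ± 0.52 over the IRF4 KO arrays on its brightest probe set and Adam17 6.92 ± 0.71 over the WT arrays and 6.98 ± 0.80 over the IRF4 KO arrays, and the gamma-secretase subunit Ncstn read 5.01 ± 0.28 over the WT arrays and 4.80 ± 0.18 over the IRF4 KO arrays. Each of these differences was smaller than the larger SD of its genotypes. The Adam10 probe sets gave no common direction. The brightest differed by -0.23, 1460083_at by -0.078, 1450104_at by 0.19 and 1450105_at by 0.75 (SE 0.45). The last was the largest change among the 18 protease probe sets, and its genotypes overlapped.

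Of the 9 probe sets of enzymes that place sugars on the receptor, 0 passed. Pofut1, which adds the fucose needed for ligand binding, differed by 0.10 on its brightest probe set, while on 1450137_at, at 3.50, 3.52 and 3.55 in WT 1, 2 and 3 and 3.63, 3.83 and 3.76 in IRF4 KO 1, 2 and 3, the genotypes did not overlap, with a change of only 0.22 (SE 0.16, 95% interval -0.15 to 0.59). The fringe enzymes, which tune ligand choice, gave no common direction. Lfng differed by -0.16 and 0.19 on its 2 probe sets and Mfng by -0.086. Rfng, named after its values were seen, differed by -0.48 (SE 0.32, 95% interval -1.23 to 0.26) on 1460704_at, the largest size of the group, and by 0.15 on its other probe set. Of the 12 probe sets of the nuclear complex, 4 changes were above 0 and 8 below, and 0 passed. Rbpj, the DNA-binding partner of the Notch intracellular domain, read 8.25, 8.22 and 8.58 in WT 1, 2 and 3 and 8.38, 8.36 and 7.94 in IRF4 KO 1, 2 and 3 on 1454896_at and differed by -0.12 (SE 0.20, 95% interval -0.59 to 0.35). Its coactivator Maml1 differed by -0.27, with WT 3 high at 7.38 and the other 5 arrays between 6.45 and 6.68.

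Turnover and inhibition of the pathway was represented by 22 probe sets, 11 above 0 and 11 below, and 0 passed. Numb, which targets Notch for endocytosis, read 7.35 ± 0.50 over the WT arrays and 7.16 ± 0.42 over the IRF4 KO arrays. Nrarp, a target that feeds back to limit Notch, read 6.41, 6.03 and 6.61 in WT 1, 2 and 3 and 6.77, 6.92 and 6.57 in IRF4 KO 1, 2 and 3 on 1417985_at. IRF4 KO 1 and 2 lay above all WT arrays and IRF4 KO 3 inside their range, and the change was 0.40 (SE 0.21, 95% interval -0.083 to 0.89), with 0.20 on its other probe set. Between IRF4 KO 1 and WT 3 the difference of 1417985_at was 0.16, and among the other 4 arrays 0.52. Fbxw7, the ligase subunit that marks the Notch intracellular domain for degradation, was named after its values were seen. It read 5.66, 5.85 and 5.97 in WT 1, 2 and 3 and 5.63, 5.44 and 5.38 in IRF4 KO 1, 2 and 3 on 1451558_at, with the 3 IRF4 KO arrays below all WT arrays, and differed by -0.34 (SE 0.18, 95% interval -0.75 to 0.064). Its other probe set, 1424986_s_at, differed by -0.46 (SE 0.26, 95% interval -1.06 to 0.13) with the genotypes overlapping, and neither passed (limma adjusted p = 0.9995). On 1451558_at the difference was -0.34 between IRF4 KO 1 and WT 3 and -0.34 among the other 4 arrays.

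Of the 17 probe sets of other targets, 12 changes were above 0 and 5 below, and 0 passed. Hey2, the HEY repressor of arterial identity, read 7.16, 7.86 and 7.59 in WT 1, 2 and 3 and 7.57, 8.14 and 7.41 in IRF4 KO 1, 2 and 3 and differed by 0.17 (SE 0.26, 95% interval -0.44 to 0.78). Efnb2, an ephrin that marks arterial endothelium, read 9.06 ± 0.46 over the WT arrays and 9.17 ± 0.33 over the IRF4 KO arrays on its brightest probe set. The 4 probe sets with an unadjusted p under 0.05 in the whole list were in this group, 3 of Ccnd1 and 1 of Myc, both named after their values were seen. Ccnd1, a G1 cyclin with many inputs besides Notch, read 6.16, 6.09 and 6.32 in WT 1, 2 and 3 and 7.38, 7.29 and 7.34 in IRF4 KO 1, 2 and 3 on 1448698_at and differed by 1.15 (SE 0.16, 95% interval 0.77 to 1.53), with an adjusted p of 0.293 in limma. Its other probe sets differed by 1.13 and 1.11, and on all 3 the genotypes did not overlap. On 1448698_at the difference was 1.06 between IRF4 KO 1 and WT 3 and 1.19 among the other 4 arrays, and Acta2, Tagln and Smtn differed by a like amount. The SDs within a genotype on 1448698_at were 0.12 and 0.042, against a median of 0.26 over the 84 probe sets. Myc, a growth-promoting transcription factor, read 5.65 ± 0.19 over the WT arrays and 5.11 ± 0.31 over the IRF4 KO arrays and differed by -0.55 (SE 0.22, 95% interval -1.04 to -0.051) (adjusted p = 0.9995), with -0.40 between IRF4 KO 1 and WT 3 and -0.62 among the other 4 arrays. Without Ccnd1 the 81 other probe sets of the list had a median of 0.054.

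**Figure D5:**
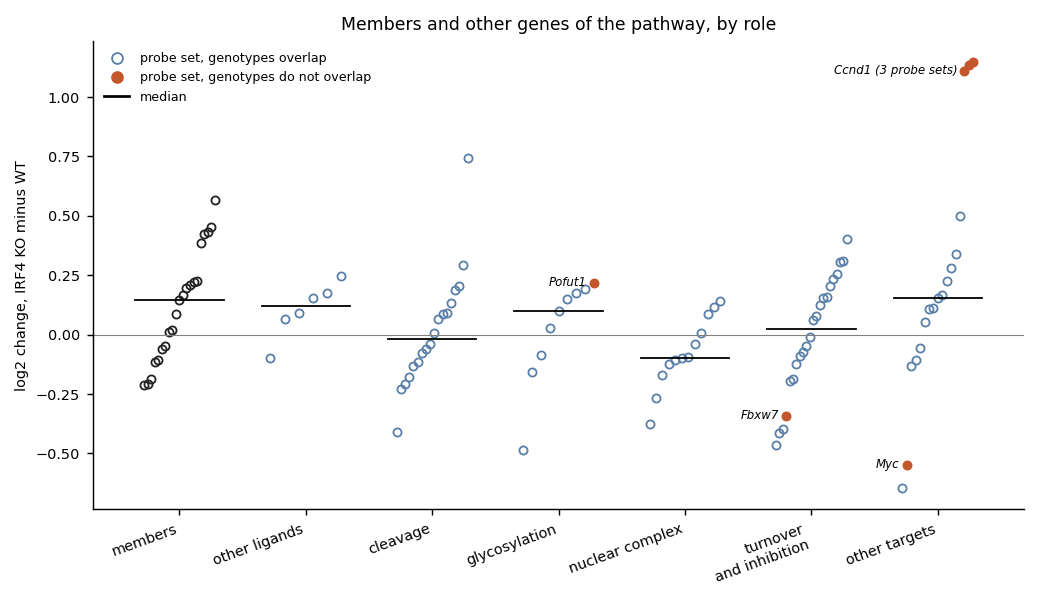
Log2 change, IRF4 KO minus WT (vertical axis), of the 21 member probe sets and the 84 probe sets of other pathway genes grouped by role, with group medians as lines; filled points are probe sets in which the genotypes did not overlap. Of the 84, 6 are filled, 3 of them Ccnd1, and 0 of the 21 members are, where 6.24% of all probe sets did not overlap.

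The promoters of the genes were searched for the letters that the factors of the pathway and IRF4 are known to bind. Windows of 300 bases, from 250 before to 50 after the gene start, came from RefSeq (GRCm38.p6), and 7 of the 10 members matched an entry. These 7 were the receptors and ligands. The targets Hes1, Hey1 and Heyl had no entry and were not searched. The motifs were TGGGAA for RBPJ, CACGTG and CACGCG for HES and HEY repressors, GAAA followed after 2 bases by GAAA for the interferon-stimulated response element bound by IRFs, and GGAA followed after 2 bases by GAAA for the composite element on which IRF4 pairs with an ETS factor such as PU.1. Both strands were read, and the motifs may overlap. None of the 7 member windows held the RBPJ letters (25.6% of 32851 windows did), the response element (3.44%) or the composite (2.72%), and 4 held CACGCG (9.27%): Notch2, Jag1, Jag2 and Dll4. The shares are over windows of any base content. G and C made up 73%, 55.7%, 86% and 63.7% of the windows of Notch2, Jag1, Jag2 and Dll4. In those of Notch1, Notch3 and Notch4 they made up 68.3%, 70% and 58.3%. A match is a description of letters, and a window without one says nothing of sites elsewhere.

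The Jag1 window is shown because Jag1 was among the members that stood highest in WT 3 and IRF4 KO 1, with its 2 CACGCG matches in capitals, the first on the reverse strand (chr2:137116471-137116770, minus strand).
Jag1: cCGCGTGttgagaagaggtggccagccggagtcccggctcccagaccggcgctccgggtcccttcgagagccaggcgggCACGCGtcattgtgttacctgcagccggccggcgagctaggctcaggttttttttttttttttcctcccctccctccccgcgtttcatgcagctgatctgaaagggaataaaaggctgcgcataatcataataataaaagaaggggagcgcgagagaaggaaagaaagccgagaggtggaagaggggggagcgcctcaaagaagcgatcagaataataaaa

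The Hey2 window is shown as that of a target, with RBPJ letters in capitals on the reverse strand 207 bases before the start and on the forward strand across it (chr10:30842734-30843033, minus strand).
Hey2: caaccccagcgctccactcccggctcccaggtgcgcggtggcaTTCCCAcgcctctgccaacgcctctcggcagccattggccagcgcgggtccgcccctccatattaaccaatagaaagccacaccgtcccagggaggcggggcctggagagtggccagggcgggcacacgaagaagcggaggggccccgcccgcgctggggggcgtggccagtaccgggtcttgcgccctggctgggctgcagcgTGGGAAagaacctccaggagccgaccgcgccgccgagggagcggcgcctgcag

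Among the 38 pathway genes with an entry, Numb and Fbxw7 were the 2 with a window that held the composite. Some genes had several windows, so this count over genes cannot be set against the shares over windows. The Numb window shown also held the response element, 46 bases before the start, and the composite lay on the reverse strand (chr12:83876763-83877062, minus strand). The other Numb windows held no match.
Numb: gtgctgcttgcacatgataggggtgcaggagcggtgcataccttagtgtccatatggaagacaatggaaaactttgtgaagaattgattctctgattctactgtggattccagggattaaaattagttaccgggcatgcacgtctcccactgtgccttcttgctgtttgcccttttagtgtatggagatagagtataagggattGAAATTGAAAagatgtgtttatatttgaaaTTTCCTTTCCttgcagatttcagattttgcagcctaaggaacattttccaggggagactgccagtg

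For Fbxw7 the composite lay 17 bases before the start of the window shown (chr3:84815327-84815626, plus strand). Another of its windows held a match too, and a further window held none.
Fbxw7: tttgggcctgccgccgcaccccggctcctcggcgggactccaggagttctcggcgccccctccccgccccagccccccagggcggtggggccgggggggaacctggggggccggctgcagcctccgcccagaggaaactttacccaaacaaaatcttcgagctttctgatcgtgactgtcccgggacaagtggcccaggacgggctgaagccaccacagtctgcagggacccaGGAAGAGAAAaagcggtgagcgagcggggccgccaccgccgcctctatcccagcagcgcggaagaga

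Neither gene passed the test: the changes of Numb were -0.19 on 1416891_at and 0.31 on 1425368_a_at, and those of Fbxw7 are given above.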

How the data were processed

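Log2 intensities of 45101 probe sets on 6 arrays were deposited in 1 table. Per the submitters' processing notes the authors made them with Affymetrix Expression Console and RMA, which corrects background, normalizes between arrays and summarises probes. No version or setting is given in the sources used here. RMA compresses differences of dim probe sets. Gene symbols came from the platform annotation: 34945 had 1 gene symbol and were no Affymetrix control, and all of these were tested, with no filter on dim values. The columns were matched to samples by accession, and genotypes were taken from the labels.

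IRF4 KO was compared with WT in limma 3.58.1 (R 4.3.3, lmFit and eBayes, two-sided, no covariate), with Benjamini-Hochberg adjustment over 34945 probe sets and calls at an adjusted p under 0.05. Values are means ± SD over 3 arrays, SEs are moderated, and 95% intervals come from the moderated t distribution. A gene's brightest probe set is that with the highest mean over 6 arrays. Levels of different probe sets were not compared. The fit was tested on simulated data.

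The members, lists, and the rule for named genes (all members, Irf4, 14 pathway genes fixed by name, 1 of which is not reported here, and any that passed) were chosen with earlier results of these data known, as were the spike-in block and the exclusion of WT 3 and IRF4 KO 1. Marker lists also covered fibroblasts, T cells, B cells, skeletal muscle, fat, nerve and lymphatics, of which 0 genes passed. Alternatives were a replicate block, the spike-in block, leaving out arrays, other normalizations, a filter on dim probe sets, other variance models, other features tested, other ways of combining probe sets, and other thresholds.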

Additional observations from a re-analysis of the deposited data

How the results depend on the processing

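No member passed under any alternative run, at an unadjusted p under 0.05 included. Over all probe sets 0 were called in the comparison as reported, against 65 with array weights (whose estimation stopped before it converged), 640 at an unadjusted p under 0.05, 6 without WT 3 and IRF4 KO 1, and 0 to 4 when 1 array was left out, the 4 without IRF4 KO 1. Of the 84 pathway probe sets, 3 were called with array weights, all of Ccnd1, and 4 at an unadjusted p under 0.05. The median member change of 0.15 ranged from 0.078 to 0.22 when 1 array was left out and was -0.083 over the brightest probe sets alone.

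No member change was called, and several signs turned. With array weights they turned for Heyl 1419302_at (0.15), Jag1 1421105_at (-0.013), Jag1 1434070_at (0.13), Notch2 1455556_at (0.21) and Notch3 1421965_s_at (0.52). With a gene's probe sets averaged they turned for Heyl (0.22), Jag1 (0.16), Notch2 (0.0055) and Notch3 (0.16). Without WT 3 and IRF4 KO 1 they turned for Heyl 1419302_at (0.053), Jag1 1434070_at (0.043), Notch3 1421965_s_at (0.15) and Notch4 1436901_at (0.13). Subtracting array medians turned Hes1 (-0.017) and Notch4 1456263_at (-0.024), the latter also with quantile normalization (-0.018). The cause was not tested.

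Leaving out 1 array turned the sign at least once for 13 of the 21. The changes then ranged over -0.24 to 0.26 for Hes1, -0.33 to 0.051 for Hey1, -0.27 to 0.031 and -0.053 to 0.43 for Heyl 1419302_at and 1438886_at, and -0.047 to 0.40 for Notch1 1418634_at. They ranged over -0.0046 to 0.23, -0.11 to 0.95 and -0.36 to 0.34 for Jag1 1421105_at, 1421106_at and 1434070_at, -0.062 to 0.49 for Notch2 1451889_at and -0.42 to 0.30 for Notch3 1421965_s_at. For Notch4 1436901_at, 1449146_at and 1456263_at they ranged over -0.34 to 0.14, -0.82 to 0.41 and -0.16 to 0.21. Both probe sets of Dll4 and of Jag2, Heyl 1419303_at, Notch1 1418633_at and Notch3 1421964_at kept their sign in all alternatives run.

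The deviations of same-numbered arrays from their genotype means correlated at -0.50, 0.32 and -0.60 for numbers 1, 2 and 3 across probe sets. The main fit did not pair the arrays. These correlations cannot tell whether a number marks shared handling, because WT 3 and IRF4 KO 1 stood apart together under different numbers. With a replicate block 0 probe sets were called, members included. Each number holds 1 array of each genotype, so the block cannot alter a change, and the median of 0.15 was bound to stay.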
